A study of Hydra vulgaris with 40 samples.

Results

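Tissue of Hydra vulgaris taken straight after the head was cut off, at 0 h of regeneration, was compared with body column of adult polyps that formed part of a body map. H. vulgaris is a fresh-water polyp, and RNA-seq libraries had been made from its adult tissues, from buds and from regenerating heads. The members were the 2 samples at 0 h and the 2 samples of body column, 4 of the 40 samples of the series, and the 16745 of 17438 genes that were above 0 in at least 2 of these 4 columns. Each 0 h sample was 1 animal that had been cut between the regions R1 and R2 of the body, from which a further piece was then taken. The labels give that piece as R2 to R3 and its tissue as regenerating head, and the study's methods call it the apical region of the animal. The body column samples came from dissected adult polyps, and how many animals went into each is not given in the sources used here. All animals were untreated polyps fed on brine shrimp and starved before tissue was taken. The regeneration course and the body map may be separate batches, so that cutting, position along the body, number of animals and batch cannot be told apart in this comparison.

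In Hydra, the body column is a tube of epithelial cells with stem cells of the interstitial lineage between them. Its cells divide and are displaced towards the tentacles and hypostome (the mouth region) at one end, and towards the foot at the other, while buds form in the budding zone in the lower part of the column. A column that has lost its head closes the wound within hours and rebuilds the head from the tissue at the upper end.

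Tissue at 0 h differed from body column in many genes, most of them by small amounts. Of the 16745 genes fitted, 1387 (8.28%) were higher and 1160 (6.93%) were lower at 0 h at an adjusted p under 0.05 in limma, so that 2547 (15.2%) were called. Median-ratio scaling of the columns turned the split round, with 951 genes higher and 1252 lower. In the 4 columns alone, fits without 1 sample have an arm of 1 sample and few degrees of freedom, and they left 2 higher genes without 0 h replicate 1, 7 without 0 h replicate 2 and 0 without either body column sample. They left 38 and 48 lower genes without 0 h replicate 1 or 2, and 0 without either body column sample. No call changed its sign in any of these 4 fits, which largely follows from calling the genes on the same samples. A fit of all 24 regeneration and body map samples leaves each difference as it was and changes the spread. It kept 2180 of the 2547 calls, with the spread estimated over the 24 samples. With the spread taken from these samples, leaving out the same samples in turn gave 1161 to 1430 higher and 812 to 1022 lower genes. Over all genes fitted, the median absolute difference between 0 h and body column was 0.336 on the scale of log2(value + 1). Between the samples of a group it was 0.179 at 0 h and 0.178 in body column. The first value is between means of 2 samples and the others are between single samples, so they are unlike measures. Both 0 h samples lay above both body column samples in 5885 genes (35.1%) and below both in 4534 (27.1%). Every difference below is on that scale, 0 h minus body column, and the median over all genes was 0.04. A single value compared in 2 against 2 samples cannot reach a two-sided exact permutation p below 0.333, so that adjusted p-values here rest on the spread shared over genes.

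Among the called genes, the lower ones had the larger differences. Both sets were chosen on these same values, so the sizes describe the called genes only. Over all genes fitted the quartiles of the difference were −0.279 and 0.374. The median size of the difference was 1.12 among the 1160 lower genes, with quartiles of 0.831 and 1.55, and 704 of them were lower by at least 1. Among the 1387 higher genes it was 0.776, with quartiles of 0.59 and 1.02, and 366 were higher by at least 1. The higher genes were also the more strongly expressed of these sets, with a median level of 29.9 against 10.2 for the lower genes, in units of the deposited values, which are on the scale of TPM (transcript abundance scaled to a common total). In the top 4186 genes by mean level, 845 were higher and 401 lower (29.8% called), while 5.95% of the 4187 genes with the lowest level were called.

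**Figure D1:**
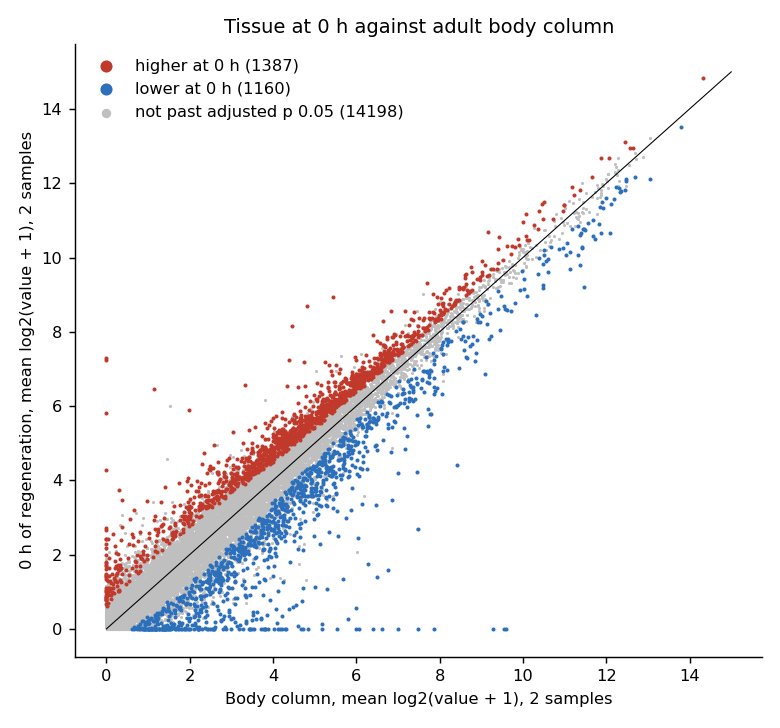
Mean log2(value + 1) of each of the 16745 genes fitted in the 2 samples at 0 h (y axis) and the 2 body column samples (x axis), with the line of equal values. Red points are the 1387 genes higher at 0 h, blue points the 1160 genes lower at 0 h and grey points the genes not called; the blue points reach further from the line than the red ones, and a row of them lies at 0 on the y axis.

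These genes made up a large part of the measured expression. The higher genes summed to 242529 and 248415 in the 0 h samples (24.3% and 24.8% of each column), compared with 158479 and 158917 in the body column samples (15.9% of each). The lower genes summed to 146156 and 140310 at 0 h (14.6% and 14%), compared with 242881 and 246667 in body column (24.3% and 24.7%). The genes were chosen on these same values, so the sums describe their size and test nothing. Among the 100 genes with the highest level, 15 were higher and 29 lower at 0 h, compared with 8.28% and 6.93% of all genes fitted. Lower genes were thus the more frequent at the very top, unlike in the top 4186 genes by mean level (845 higher and 401 lower).

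The same test with the same number of samples was run between 0 h and the other tissues and within each course. Between the courses, 0 h against budding zone had 3483 genes called (20.8%), 0 h against foot 4445 (26.2%), 0 h against hypostome 5419 (31.9%) and 0 h against tentacles 10150 (59.7%). Body column thus had the fewest genes called against 0 h of the 5 tissues. Within regeneration, 2 genes were called at 2 h against 0 h (0.012%), 8 at 4 h (0.0483%) and 5 at 6 h (0.0299%), all of them higher than at 0 h in limma, while 1052, 1486 and 2058 had an unadjusted p under 0.05. At 12 h 1368 genes were called (8.14%), at 24 h 278 (1.66%) and at 48 h 3791 (22.4%). Within the body map, budding zone against body column had 66 genes called (0.392%), foot against body column 2177 (12.8%), hypostome against body column 5366 (31.4%) and tentacles against body column 10084 (58.9%). The 2547 genes called between 0 h and body column were thus more than between 0 h and any time up to 24 h or between body column and budding zone or foot, and fewer than between 0 h and 48 h or between body column and hypostome or tentacles. The comparisons within the courses other than 2 h against 0 h and budding zone against body column were added after the data were seen. All these counts share the 0 h samples or the body column samples with the main comparison, so they are set side by side only, and the differences between counts were not tested.

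**Figure D2:**
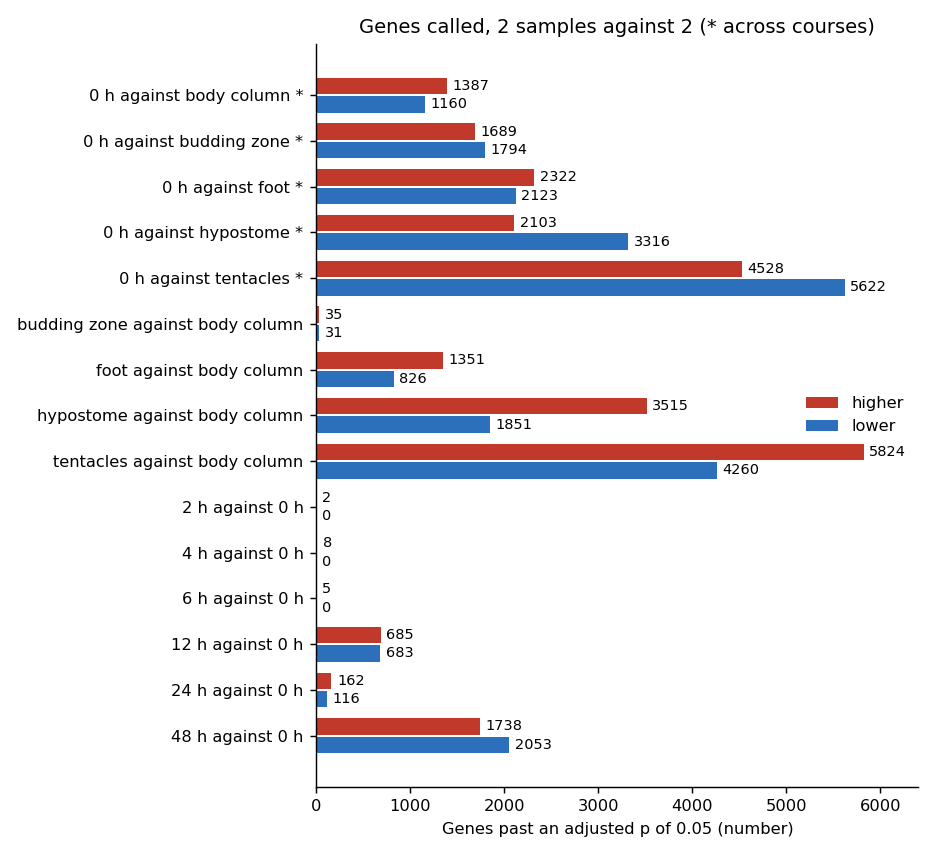
Number of genes past an adjusted p of 0.05 (x axis) in 15 comparisons of 2 samples with 2, red bars for genes higher and blue bars for genes lower in the first-named condition; an asterisk marks the comparisons between courses. The bars for 0 h against body column (1387 and 1160) are the shortest of the 5 between courses, and those within a course run from 2 and 0 at 2 h against 0 h to 5824 and 4260 in tentacles against body column.

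Correlations over genes placed the 0 h samples closest to those at 2, 4 and 6 h. Pearson's r of log2(value + 1) was 0.962 to 0.977 between 0 h and 2 h samples, 0.967 to 0.971 with 4 h and 0.968 to 0.975 with 6 h. It was 0.938 to 0.943 with 12 h, 0.953 to 0.957 with 24 h and 0.925 to 0.944 with 48 h. Between 0 h and body column it was 0.947 to 0.951, which lay above the values with 12 and 48 h of the same course, and between 0 h and hypostome it was 0.901 to 0.918. Body column samples correlated at 0.971 to 0.973 with budding zone, at 0.879 to 0.892 with hypostome, at 0.933 to 0.96 with 4 h and at 0.946 to 0.956 with 24 h. These are correlations over genes, which are not independent replicates, and samples of a course share any processing specific to it.

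The genes higher at 0 h stayed high in early regeneration and were not high in the adult trunk. Each gene was set against its mean in the 20 samples that the comparison did not use, namely the 12 regeneration samples from 2 to 48 h and the 8 samples of tentacles, hypostome, budding zone and foot. By this measure the median higher gene stood at 0.37 and 0.41 at 0 h, between 0.20 and 0.52 in the 6 samples from 2 to 6 h, and between −0.14 and −0.02 in the 6 samples from 12 to 48 h. In the body map it stood at −0.35 in both body column samples, −0.31 and −0.28 in budding zone, −0.41 and −0.32 in foot, −0.26 and −0.25 in tentacles and −0.0025 and 0.0377 in hypostome. The gap between the 0 h and body column samples follows from how the genes were chosen. In the samples not used for that, the median lay above budding zone and foot at every time and above hypostome up to 6 h.

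The genes lower at 0 h were high in budding zone as well as in body column. Their median stood at −0.33 and −0.39 at 0 h and between −0.44 and −0.17 from 2 to 6 h, compared with 0.73 and 0.80 in body column and 0.77 and 0.65 in budding zone. Foot had 0.48 and 0.34, hypostome 0.00193 and −0.0369, and tentacles −0.12 and −0.16. In regeneration the highest medians were those at 24 h, −0.0296 and 0.0977, and no regeneration sample reached the level of budding zone or foot.

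**Figure D3:**
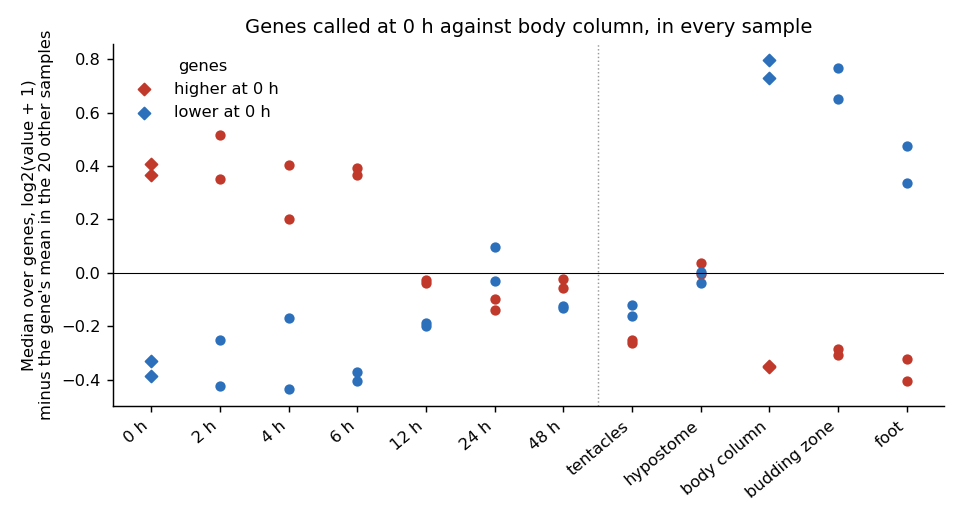
Median over the 1387 genes higher at 0 h (red) and over the 1160 genes lower at 0 h (blue) in each sample of regeneration (left of the dotted line) and the body map (right), as log2(value + 1) minus the gene's mean in the 20 other samples. Diamonds are the 4 samples that chose the genes; among the others, the red points are highest from 2 to 6 h and the blue points are highest in budding zone.

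The same ordering showed in where each gene peaked. Of the genes higher at 0 h, 624 (45%) had their highest mean among the 4 other tissues in hypostome, compared with 22.7% of all genes fitted, and 61 (4.4%) had it in foot, compared with 9.45%. Of the genes lower at 0 h, 665 (57.3%) peaked in budding zone, compared with 28.5% of all genes, and 67 (5.78%) in hypostome. Along regeneration after 0 h, 560 of the higher genes (40.4%) had their highest mean at 2 h, compared with 22.2% of all genes, and 13 (0.937%) at 24 h. The lower genes peaked most often at 24 h (374, 32.2%, compared with 12.5% of all genes).

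The difference between the courses was then measured in samples that the comparison does not share, as the mean of the 12 later regeneration samples minus the mean of the 8 samples of the other tissues. A mean was fitted per condition, so p-values rest on the spread between samples of a condition. They do not measure the spread among times, among tissues or between courses. In this contrast 4052 of 17435 genes (23.2%) were higher and 6633 (38%) lower in later regeneration at an adjusted p under 0.05 in limma. Quantile normalization turned this split round, with 5711 genes higher and 5014 lower. Without the tentacles, a setting added later, 3300 were higher and 4889 lower. The shares that follow come from the fit without these changes. Of the 1387 genes higher at 0 h, 887 (64%) were also higher in later regeneration than in the other tissues, 165 (11.9%) were lower and 335 (24.2%) were not called. Over all genes fitted at 0 h against body column, 23.9% were higher and 36.9% lower. Of the 1160 genes lower at 0 h, 758 (65.3%) were also lower in later regeneration, 75 (6.47%) were higher and 327 (28.2%) were not called. The 887 genes are 21.9% of all genes higher in later regeneration, and the 758 genes are 11.4% of those lower. Most of the genes that set 0 h apart from body column thus had a difference of the same sign between the later samples of the courses. The median difference between the courses was 0.37 for genes higher at 0 h, −0.55 for genes lower at 0 h and −0.09 over all genes. All 12 later regeneration samples lay above all 8 tissue samples in 77 of the higher genes (5.55%), compared with 0.926% of all genes, and below them in 63 of the lower genes (5.43%), compared with 1.46%. The study's methods do not say whether the courses were adjusted and normalised together, and whether a batch or the state of the tissue moved these genes was not tested.

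Since the identifiers of the values are gene model numbers that no table used here pairs with names, groups of genes were formed from their expression in other samples. A list for each of the 4 other tissues held the genes whose samples in that tissue lay above all samples of the other 3 and whose mean was higher by at least 1, with the 0 h and body column samples playing no part. An early regeneration list held genes higher by at least 1 at 2 h than at 24 and 48 h, a late regeneration list genes higher at 48 h than at 2 and 4 h, and a late bud list genes higher at stage 10 than at stages 1 and 3 of budding. Their counts are read against the 8.28% of genes higher and 6.93% lower at 0 h over all genes fitted.

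Genes of the hypostome list were called higher at 0 h far more often than lower. Of its 419 genes, 395 were fitted, 121 (30.6%) were higher at 0 h and 5 (1.27%) lower, and the median difference was 0.55, with quartiles of 0.13 and 0.97. The summed value of the 419 genes was 29028 and 26472 at 0 h, compared with 16761 and 15210 in body column. In hypostome itself the sum was 72352 and 76908, and in budding zone it was 7308 and 6756. Tissue at 0 h therefore held more of the hypostome list than body column. It also held far less than hypostome. The list was chosen for high values in hypostome, so a lower level in other samples largely follows from that choice. The mean at 0 h lay between the means of body column and hypostome in 308 of the 395 genes. It was above hypostome in 29 and below body column in 58. At 2 h the sum was 16121 and 20322, and from 4 to 48 h it lay between 15284 and 31360, so later samples overlapped both groups. A wider list of 3035 genes called higher in hypostome than in budding zone, added after the data were seen, had 563 of 2868 genes fitted (19.6%) higher and 55 (1.92%) lower at 0 h, with a median of 0.32. A list of 930 genes called higher in foot than in budding zone, added in the same way, had 114 of 735 genes fitted (15.5%) higher and 45 (6.12%) lower, with a median of 0.17, so a share of higher genes above that of all genes was not particular to hypostome genes.

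Genes of the early regeneration list were also called higher at 0 h more often than lower. Of 545 genes, 528 were fitted, 141 (26.7%) were higher and 17 (3.22%) lower, with a median difference of 0.51. Their summed value was 24484 and 27284 at 0 h, compared with 16190 and 17256 in body column. The sum was 27921 and 37919 at 2 h, 33188 and 28074 at 4 h, 26824 and 25771 at 6 h, and 17125 and 17365 at 12 h. The 0 h samples lay below all 2 and 4 h samples and overlapped those at 6 h, while the 12 h samples were at the level of body column, budding zone (16359 and 16750) and foot (16962 and 15646). The list is built from regeneration samples alone, and only 8 of its genes were also in the hypostome list.

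Genes of the budding zone list were mostly called lower where they were called. Of 239 genes, 237 were fitted, 8 (3.38%) were higher and 101 (42.6%) lower, and the median difference was −0.77, with quartiles of −1.77 and −0.05. Without body column replicate 2 the median was −0.485. The summed value was 35556 and 45359 at 0 h, compared with 56292 and 57924 in body column and 49483 and 46315 in budding zone. Both body column samples thus had a higher sum than any 0 h or budding zone sample, although they took no part in choosing the list. Gene by gene, the body column mean was above the 0 h mean in 182 of the 237 genes and above the budding zone mean in 132. From 2 to 24 h the sum lay between 24078 and 47669, a range that holds both 0 h samples. At 48 h it was 22755 and 23160.

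The remaining lists moved little or in both directions. Of the tentacle list, 1798 of 2041 genes were fitted, with 119 (6.62%) higher and 77 (4.28%) lower, and a median of 0.04 that became −0.00155 under median-ratio scaling. The sum of this list was 34648 and 31157 at 0 h, compared with 29711 and 30915 in body column and 234886 and 227536 in tentacles. Neither the 0 h nor the body column samples carried the tentacle genes at the level of tentacles, for whose high values the list was chosen. Of the foot list, 198 of 341 genes were fitted, with 9 higher and 18 lower, and a median of −0.03 that became 0.000527 under quantile normalization. Of the late bud list, 862 of 879 genes were fitted, with 85 (9.86%) higher and 29 (3.36%) lower. Of the late regeneration list, 972 of 1115 genes were fitted, with 68 (7%) higher, 153 (15.7%) lower and a median of −0.000306, whose sign changed under quantile normalization (0.0319). Leaving aside the lists added after the data were seen, 150 of the 366 genes higher at 0 h by at least 1 were in none of the lists. Of the 704 genes lower by at least 1, 450 were in none. The share of all genes fitted that were in none was not counted, so these counts cannot be called high or low.

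**Figure D4:**
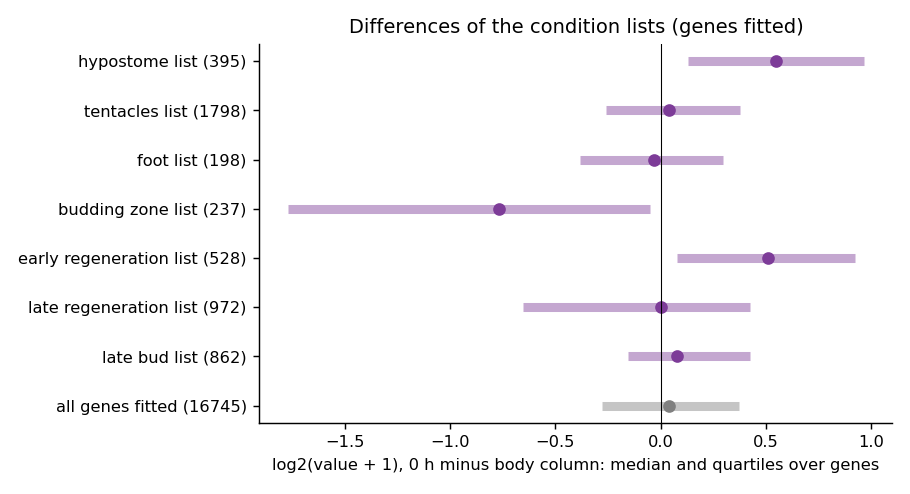
Median (point) and quartiles (bar) of log2(value + 1), 0 h minus body column, over the fitted genes of each list, with the number of genes in brackets and all genes fitted in grey. The hypostome and early regeneration lists lie to the right of all genes, with medians of 0.55 and 0.51, and the budding zone list lies to the left, with a median of −0.77.

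Some genes were listed at 0 in both samples of one group. There were 759 genes at 0 in both 0 h samples, 589 at 0 in both body column samples and 363 at 0 in all 4. Of the 210 fitted genes at 0 at 0 h, 112 were called lower, and of the 82 fitted genes at 0 in body column, 33 were called higher. With no read counts, a listed 0 may be a failed estimate, and no fold difference is given for these genes.

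The genes with the largest fitted differences were all of this kind. Sc4wPfr_155.g16879 had 111.47 and 216.39 at 0 h, compared with 0 and 0 in body column (adjusted p = 0.0114 in limma). It had 161.09 and 214.58 in hypostome and 177.39 and 174.44 in tentacles, was at 0 in budding zone and foot, and lay between 14.68 and 628.99 in all 12 later regeneration samples. Sc4wPfr_1327.g270 had 121.62 and 183 at 0 h, compared with 0 and 0 in body column (adjusted p = 0.00675 in limma). It had 84.92 and 133.38 in hypostome and 235.28 and 226.43 in tentacles, was at 0 in budding zone and foot, and lay between 36.29 and 522.41 in later regeneration. Both genes were thus listed in the head tissues and in every regeneration sample but in no sample of trunk or foot, and both lost their call without body column replicate 1 or 2 (adjusted p = 0.108 and 0.124).

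The largest fitted differences in the other direction belonged to genes that came and went between samples of the same condition. Sc4wPfr_1036.g385 was at 0 in both 0 h samples, compared with 970.65 and 609.37 in body column (adjusted p = 0.00601 in limma), and had 164.54 and 61.47 in budding zone. It was at 0 in tentacles, hypostome and foot and in 9 of the 12 later regeneration samples, and had 216.55 in 4 h replicate 2, 45.78 in 12 h replicate 2 and 69.11 in 24 h replicate 2. Sc4wPfr_519.g17997 was at 0 in both 0 h samples, compared with 1067 and 530.54 in body column (adjusted p = 0.00784 in limma), and had 200.74 and 60.38 in budding zone. Among the later regeneration samples it was above 0 only in the same 3, at 258.52, 95.59 and 63.96. The other sample of each of these times was at 0 for both genes, so the samples of the same time differed in both genes. All later regeneration samples with a value above 0 for these genes were replicate 2, so single animals and a set of samples sharing that number cannot be told apart.

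Other genes were at 0 at 0 h and well above 0 in body column, and part of them came and went in the same samples. The 25 genes at 0 in both 0 h samples and at 10 or more in both body column samples, chosen after their values were seen, stood on 23 scaffolds of the assembly. All 25 were among the genes called lower, which largely follows from that choice. Of them, 24 were above 0 in both budding zone samples and 13 were at 0 in all 6 samples of tentacles, hypostome and foot. The budding zone list held 19 of them, and it held 237 of the 16745 genes fitted. None was at 0 in all 14 regeneration samples, and 17 of the 25 were above 0 in all 3 of the samples named above, 4, 12 and 24 h replicate 2. Those samples were picked out by Sc4wPfr_1036.g385 and Sc4wPfr_519.g17997, which are themselves among the 25 genes. Those 13 genes summed to 0 and 0 at 0 h, compared with 3696 and 2115 in body column and 778.1 and 292.9 in budding zone. In later regeneration they summed to 1065 in 4 h replicate 2, 300.6 in 24 h replicate 2, 255.7 in 12 h replicate 2 and 37.97 in 2 h replicate 2, and to at most 9.56 in each of the other 8 samples. All 13 were above 0 together in each of the 3 samples with the highest sums. Sums at or near 0 were thus shared by most regenerating animals and not by all of them. In the other direction, 3 genes were at 0 in both body column samples and at 10 or more in both 0 h samples. All 3 were called higher, which again largely follows from the choice.

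**Figure D5:**
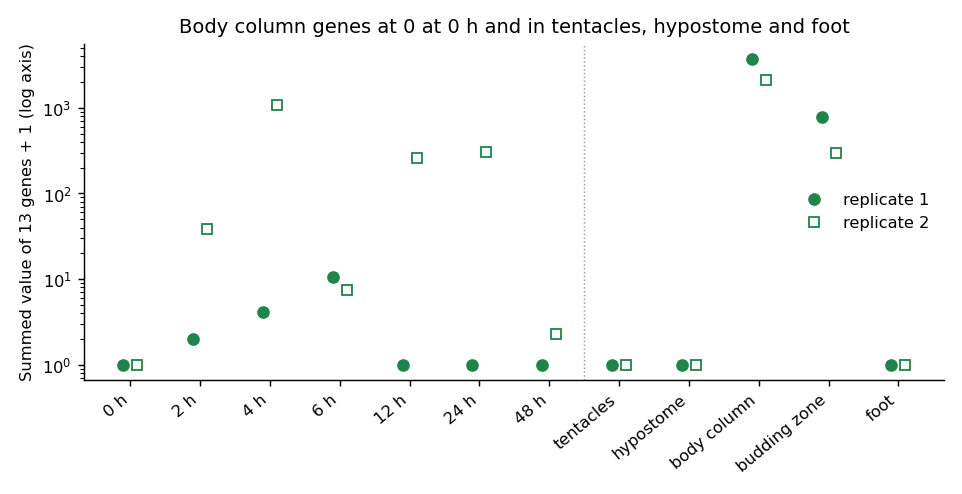
Summed value, plus 1, on a log axis, of the 13 genes at 0 in both 0 h samples and in tentacles, hypostome and foot, and at 10 or more in both body column samples, for replicate 1 (filled circles) and replicate 2 (open squares) of each condition. Besides body column (3696 and 2115) and budding zone (778.1 and 292.9), the sum lies between 255.7 and 1065 in replicate 2 at 4, 12 and 24 h.

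The opsins, a receptor family with members that detect light, were the subject of the study. They could be followed in 2 genes, since 2 of the 45 identifiers in its list of opsins match those of the values. HvOpD8 had 0.19 and 0.08 at 0 h, compared with 0.17 and 0.09 in body column, a difference of 0.01 ± 0.129 (SE, adjusted p = 0.984 in limma). HvOpD9 had 0.10 and 0.11 at 0 h, compared with 0.15 and 0.13 in body column, a difference of −0.04 ± 0.115 (SE, adjusted p = 0.832 in limma). Both were near 0 in all 4 samples, where the pseudocount of 1 shrinks any difference, and the sign changed under median-ratio scaling for HvOpD8 (−0.00356) and under quantile normalization for HvOpD9 (0.0707).

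The called genes stood on many scaffolds of the assembly, part of them next to each other. The 1387 higher genes stood on 595 scaffolds and the 1160 lower genes on 534. In the numbering of the gene models, 299 higher genes (21.6%) had a neighbour that was also higher, compared with 14.6% of all genes fitted, and 236 lower genes (20.3%) had a neighbour that was also lower, compared with 12.2%. Neighbouring models can be pieces of a single gene or copies that share reads, and neither was tested.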

How the data were processed

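RNA was amplified from poly-A RNA by a modified Smart-seq2 protocol and sequenced as paired-end reads. Per the labels and the study's methods, the authors used Trimmomatic 0.35 for trimming, bowtie 1.2 for alignment to a transcriptome assembled in the study and RSEM 1.2.31 for TPM estimates, which went through ComBat for batch effects and then qsmooth. Which batches were removed is not given in the sources used here. The deposited values were therefore taken as a signal in TPM-like units after adjustment. Both samples of each group hold the same sorted values (sums of 999968 at 0 h and 999306 in body column, with 1184 and 924 genes at 0), so that the spread between replicates may be understated and the p-values too small. Sums lay between 997030 and 1001349 over the 14 regeneration samples and between 997510 and 1003684 over the 10 body map samples. Read counts were not used, so the depth and the precision it gives are unknown.

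Columns were assigned by their names. Genes above 0 in at least 2 of the columns fitted were analysed as log2(value + 1) with limma 3.58.1 in R 4.3.3 (lmFit, eBayes with a trend, two-sided), with p-values adjusted by Benjamini-Hochberg over all genes fitted and a threshold of 0.05. The step was tested on simulated data. Members and lists were chosen with earlier results of these data known. Genes named were the 2 with the largest difference in each direction among those called, and the opsins that match an identifier. No identifier of the values matched the RefSeq gene table (0 matches), and protein and promoter sequences were not used here. Alternatives changed the pseudocount, filter, scaling, prior, samples fitted and replicate block.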

Additional observations from a re-analysis of the deposited data

How the results depend on the processing

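The counts of called genes moved with the filter, the scaling, the threshold and the samples and prior behind the spread. The number higher at 0 h was 665 with no filter on low values, 923 after quantile normalization, 697 with no trend in the prior variance, 2238 in the fit of 24 samples and 366 with a difference of at least 1, compared with 1387. The number lower was 591 with no filter, 715 in the fit of all 40 samples and 704 with a difference of at least 1, compared with 1160. Genes higher were 54.5% of those called, 45.6% after quantile normalization and 43.2% after median-ratio scaling. Leaving out 1 of the 4 samples gave 0 to 7 higher and 0 to 48 lower genes with few degrees of freedom, and 0 calls were kept in all 4 fits; in the fit of 24 samples less 1, chosen after seeing the data, 1206 of the 2547 calls were kept in all 4. With the replicate number as a block, 0 genes were higher and 0 lower, and the 4 genes with the largest differences had an adjusted p of 0.0671 in limma, while 2 h against 0 h had 1 gene called with the block and 4 with a pseudocount of 0.1. Replicate differences correlated at 0.0491 between 0 h and body column over the genes fitted, on values already adjusted for batch effects. Whether samples with the same replicate number share a batch was not tested.

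List medians kept their sign for the hypostome list (0.684 with a pseudocount of 0.1, 0.483 with median-ratio scaling, 0.624 with a list difference of at least 2, 0.462 to 0.596 without 1 sample), the early regeneration list (0.602, 0.439 and 0.298 for the same settings, 0.494 to 0.591 without 1 sample), the budding zone list (−0.887 with a pseudocount of 0.1, −1.35 with a list difference of 2, −0.815 to −0.485 without 1 sample, and −0.674 without body column replicate 1) and the late bud list (0.0193 with median-ratio scaling, 0.0419 to 0.109 without 1 sample). The sign changed for the tentacle list (−0.00155 with median-ratio scaling), the foot list (0.000527 with quantile normalization and 0.000277 without 0 h replicate 1, compared with −0.116 with a pseudocount of 0.1, −0.0864 with median-ratio scaling and −0.0628 without 0 h replicate 2) and the late regeneration list (0.0319 with quantile normalization, 0.0611 with a list difference of 2, and 0.0543, 0.0176 and 0.00626 without 0 h replicate 2 or body column replicate 1 or 2, compared with −0.103 without 0 h replicate 1). HvOpD8 had −0.00356 with median-ratio scaling and −0.0644 to 0.0755 without 1 sample (−0.0455 without body column replicate 2), and HvOpD9 had 0.0707 with quantile normalization. In these cases the cause was not tested. A minimum of 1 or 30 in body column in place of 10 gave 93 or 11 genes at 0 at 0 h. The depth of the samples is unknown, so it cannot be said which low values are within counting error.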
